A study of Mus musculus with 2 samples.

Results

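The 9 genes described here, Rgs5, Rgs4, Pdgfrb, Cspg4, Kcnj8, Abcc9, Mcam, Higd1b and Ndufa4l2, are markers of pericytes and of other mural cells, the cells that wrap blood vessels. They were chosen by gene name on a custom 2-colour Agilent array that sets ureters of Rbpj-cKO mouse pups, in which a Tbx18-driven cre deletes Rbpj, against those of controls. The 9 genes are read by 11 of the 39429 gene probes of the array, with 2 probes each for Rgs4 and Mcam. All 11 probes passed the filter on dim probes, as did 28175 probes in all, which stand for 21143 gene, clone or model names.

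All RNA came from ureters of NMRI mice dissected at postnatal day 4. The Rbpj-cKO mice were Tbx18(cre/+);Rbpj(fx/fx), and the control mice were Tbx18(+/+) with 1 floxed Rbpj allele and a second Rbpj allele that was not determined. Controls thus had no cre allele at the Tbx18 locus, and cre can act only in cells whose lineage expressed Tbx18. The groups differ in a Tbx18 allele as well as in Rbpj, and the parts of these in any difference cannot be told apart. Array 1 held a pair labelled female, with Rbpj-cKO in red (Alexa647), and array 2 held a pair labelled male, with the dyes exchanged. Thus n = 2 pairs, and sex label, dye orientation and replicate changed together. The labels do not say how many animals each RNA came from, so the p-values speak of these 2 pairs and not of the spread between animals. With 1 residual degree of freedom, limma combines the spread between the pairs with a prior taken over all probes (4.54 degrees of freedom in total).

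Pericytes lie on capillaries and small venules inside the basement membrane of the endothelium, and vascular smooth muscle cells surround larger vessels. Endothelial cells recruit both with the growth factor PDGF-B, which acts on the receptor PDGFRB, and Notch signalling through NOTCH3 and RBPJ is a known regulator of mural cells. Tbx18 is expressed in the mesenchyme around the ureteric epithelium and also in mural cells of many organs, so the cre driver can act in ureteric smooth muscle, stroma and mural cells. None of the 9 genes belongs to mural cells alone: Pdgfrb is also made by fibroblasts, Mcam by endothelium and smooth muscle, and Cspg4 and Rgs4 by cells of the nervous system.

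All spots of the 9 genes were well above background in both channels, and 0 were saturated. The targeted gene Rbpj, read by 2 probes, had log2 ratios of Rbpj-cKO over control of -0.92 and -1.10 on arrays 1 and 2 for the brighter probe. The position of these probes relative to the deleted stretch was not examined, so they leave the labels unchecked, and Tbx18 stood at 0.08 ± 0.11 (SD, n = 2). On array 1, labelled female in both channels, the Y-linked gene Ddx3y stood at a log2 level of 11.31 in the Rbpj-cKO RNA and 7.08 in the control RNA. The Rbpj-cKO RNA of array 1 thus goes against its sex label, and "labelled female" and "labelled male" are used here as the labels' words only. Within array 1, genotype and Y-linked RNA differ together, so their parts in the ratios of that array cannot be told apart. The liver gene Alb stood at log2 levels of 10.73 and 11.27 in the Rbpj-cKO RNAs of arrays 1 and 2, against 9.83 and 13.93 in the control RNAs, so that it was higher in the Rbpj-cKO RNA on array 1 and lower on array 2. Ddx3y and Alb were chosen after their values were seen, and their part in the marker values was not tested. Each array is therefore also given alone below.

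The mural cell markers were mostly lower in the Rbpj-cKO RNA, though no probe of the 9 genes passed the test across all probes. The lowest were Kcnj8 at 61.8%, Pdgfrb at 64.1% and Ndufa4l2 at 67.1% of the control level, as means of the log2 ratios of 2 arrays. Rgs4, Mcam, Cspg4 and Abcc9 formed a second tier at 80.0% to 82.1% by 1 probe each. Rgs5, the first probe of Rgs4 and the second of Mcam lay closer to the control level, and Higd1b was the only marker with a mean above it, at 108%. In RNA of a whole organ, fewer mural cells and less of each RNA per cell cannot be told apart.

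In counts, 8 of the 11 probes were lower in the Rbpj-cKO RNA on both arrays, and 30.9% of all probes were. Only Higd1b was higher on both (30.1% of all probes), and the remaining probes, those of Rgs5 and the first of Rgs4, differed in sign between the arrays. For 7 of the 11 probes both Rbpj-cKO levels lay below both control levels, against 21.2% of all probes. The probe of Kcnj8 alone (1 probe) was at least 1.5-fold lower on both arrays, which 0.713% of all probes were. In the higher direction, 0 of the 11 met the same rules, against 20.8% of all probes for levels without overlap and 0.33% for size. By limma, 0 of the 11 probes passed an adjusted p of 0.05. Of all probes, 0.00355% passed as lower (1 probe, that of the brown fat gene Ucp1) and 0 as higher. At an unadjusted p under 0.05, limma gave 7 of the 11 probes as lower, against 7.29% of all probes, and 0 as higher, against 6.42%. By gene, through the brightest probe, both Rbpj-cKO levels lay below both control levels for 6 of the 9 (20.7% of all names), and 6 were lower at an unadjusted p under 0.05 (7.25%).

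Over the 9 genes, each taken by its brightest probe, the arrays gave median log2 ratios of -0.31 and -0.28. The median over all 21143 names was -0.01 and 0.01. With array 1 alone 9 of the 11 probes were lower (52.8% of all probes), and with array 2 alone 9 were lower as well (48% of all probes).

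**Figure D1:**
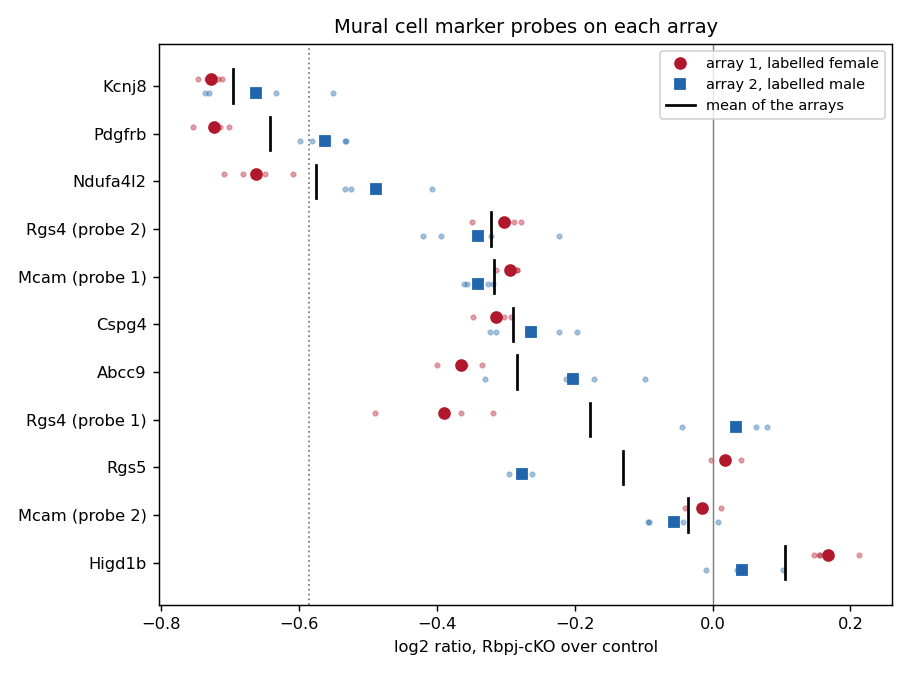
The log2 ratio of Rbpj-cKO over control (horizontal axis) for each of the 11 probes, with small points for single spots, circles for array 1, squares for array 2 and a bar for the mean of the arrays; the dotted line marks 1.5-fold lower. Kcnj8 lies beyond the dotted line on both arrays, Pdgfrb and Ndufa4l2 on array 1 only, and Higd1b alone lies right of 0 on both.

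Pdgfrb encodes the receptor tyrosine kinase for PDGF-B and PDGF-D that draws mural cells to new vessels. Its probe, on chromosome 18 at 61244606-61244665 (mm9, plus strand), had log2 levels of 13.39 and 13.31 in the Rbpj-cKO RNAs of arrays 1 and 2, against 14.11 and 13.87 in the control RNAs. Both Rbpj-cKO RNAs were below both controls. The log2 ratios were -0.72 and -0.56, with a mean of -0.64 ± 0.11 (SD, n = 2; adjusted p = 0.128), and the 95% interval of limma ran from -0.86 to -0.42. On array 2 the difference was just under 1.5-fold.

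Cspg4 encodes NG2, a transmembrane proteoglycan on the surface of pericytes and of oligodendrocyte precursors. Its probe (chromosome 9 at 56746627-56746686, mm9, plus strand) had log2 levels of 11.87 and 12.00 in the Rbpj-cKO RNAs, against 12.18 and 12.26 in the control RNAs. The ratios of the pairs were close to each other, -0.31 and -0.26, with a mean of -0.29 ± 0.04 (adjusted p = 0.258). Both Rbpj-cKO RNAs were below both controls, and the difference was larger than the spread between the pairs but smaller than that of Pdgfrb.

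Mcam encodes CD146, an adhesion molecule of the immunoglobulin superfamily found on pericytes, smooth muscle and endothelium. It has 2 probes on the plus strand of chromosome 9, probe 1 at 43949385-43949444 and probe 2 at 43950664-43950723 (mm9), whose starts lie 1279 bases apart. Probe 1 had log2 levels of 12.86 in both Rbpj-cKO RNAs, against 13.16 and 13.20 in the control RNAs, and ratios of -0.29 and -0.34 (mean -0.32 ± 0.03, adjusted p = 0.231). Probe 2 had 15.39 and 15.33 in the Rbpj-cKO RNAs, against 15.40 and 15.38 in the control RNAs, and ratios of -0.02 and -0.06 (mean -0.04 ± 0.03, adjusted p = 0.891). The 2 probes therefore gave different answers for 1 gene: the groups did not overlap at probe 1, and they did at probe 2. The second probe is the brightest of the gene and would stand for it in a summary by gene. A stretch of 30 bases of each probe is shown because their sequences differ in kind. Bases 1 to 30 of probe 1 and bases 11 to 40 of probe 2 read as follows, 5′ to 3′, with capitals for a run of GT repeats.
Mcam probe 1: atttgtagttgaagttaagtcagataagct
Mcam probe 2: ttgagGTGTGTGTGTGTGTGTGTGTataca
The run in probe 2 is 20 bases long, and a GT or CA run of at least 16 bases is held by 105 of the 28175 probes (0.373%). Whether transcripts of other genes with such repeats add to the signal of probe 2 was not tested.

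The KATP channel genes of mural cells were both lower. Kcnj8 encodes KIR6.1, the pore of the ATP-sensitive potassium channel of pericytes and vascular smooth muscle, and Abcc9 encodes SUR2, its regulatory subunit. The channel opens when the cell's energy charge falls and relaxes the vessel wall. Kcnj8 had log2 levels of 10.82 and 11.08 in the Rbpj-cKO RNAs, against 11.54 and 11.74 in the control RNAs. Both Rbpj-cKO RNAs were below both controls, and the pairs differed little: the ratios were -0.73 and -0.66, with a mean of -0.70 ± 0.05 and an interval from -0.89 to -0.50. This was the largest difference of the 11 probes and the smallest adjusted p (0.104). Only 1.39% of all probes had a lower mean ratio.

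Abcc9 had log2 levels of 14.35 and 14.59 in the Rbpj-cKO RNAs, against 14.72 and 14.79 in the control RNAs. The groups did not overlap, but the difference was smaller than that of Kcnj8 and less alike between the pairs, with ratios of -0.37 and -0.20 and a mean of -0.28 ± 0.11 (adjusted p = 0.290). The probes lie on the minus strand of chromosome 6 at 142513487-142513546 for Kcnj8 and at 142536920-142536979 for Abcc9 (mm9). On GRCm38.p6 the genes are neighbours on chromosome 6, 16.2 kb apart, with 0 protein-coding genes between them. Of the other KATP subunits, Abcc8 encodes SUR1 and is known from pancreatic islets and neurons. Its brighter probe had ratios of -0.41 and -0.70 (mean -0.55 ± 0.21, adjusted p = 0.184), and its other probe read -0.56. The brighter probe was itself dim beside those of Kcnj8 and Abcc9, with log2 levels of 8.34 and 8.20 in the Rbpj-cKO RNAs. The control RNAs had 8.75 and 8.90. Kcnj11, the other pore subunit, was not well above background by the filter.

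Because the neighbours Kcnj8 and Abcc9 were lower together, the 250 bases upstream of their RefSeq starts are shown, read 5′ to 3′ on the minus strand. Capitals mark TGGGAA, the core of the sequence bound by RBPJ, which was sought on both strands. The window of Kcnj8 spans chr6:142571615-142571864 and that of Abcc9 chr6:142702275-142702524 (RefSeq, GRCm38.p6).
Kcnj8: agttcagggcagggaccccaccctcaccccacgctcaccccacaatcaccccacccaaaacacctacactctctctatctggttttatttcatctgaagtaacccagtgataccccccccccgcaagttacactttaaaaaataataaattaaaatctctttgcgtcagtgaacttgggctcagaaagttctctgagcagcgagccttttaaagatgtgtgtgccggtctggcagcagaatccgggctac
Abcc9: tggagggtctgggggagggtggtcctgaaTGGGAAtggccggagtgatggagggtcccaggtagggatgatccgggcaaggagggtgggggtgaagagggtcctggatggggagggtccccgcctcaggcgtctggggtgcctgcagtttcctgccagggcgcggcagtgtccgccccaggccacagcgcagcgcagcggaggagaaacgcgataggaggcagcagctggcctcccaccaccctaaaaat
The Abcc9 window holds the core once, on the strand as printed, with its first base 221 bases before the start. The Kcnj8 window does not hold it on either strand. Windows were given for 6 of the 9 genes, Rgs5, Rgs4, Cspg4, Kcnj8, Abcc9 and Mcam, and Abcc9 was the only one of them with the core (1 gene). Of all 32851 windows of this length, 21.6% hold TGGGAA on either strand. The longer GTGGGAA, which contains the core, was found in 0 of the 6 windows and in 5.42% of all. A match describes these letters and does not show binding.

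**Figure D2:**
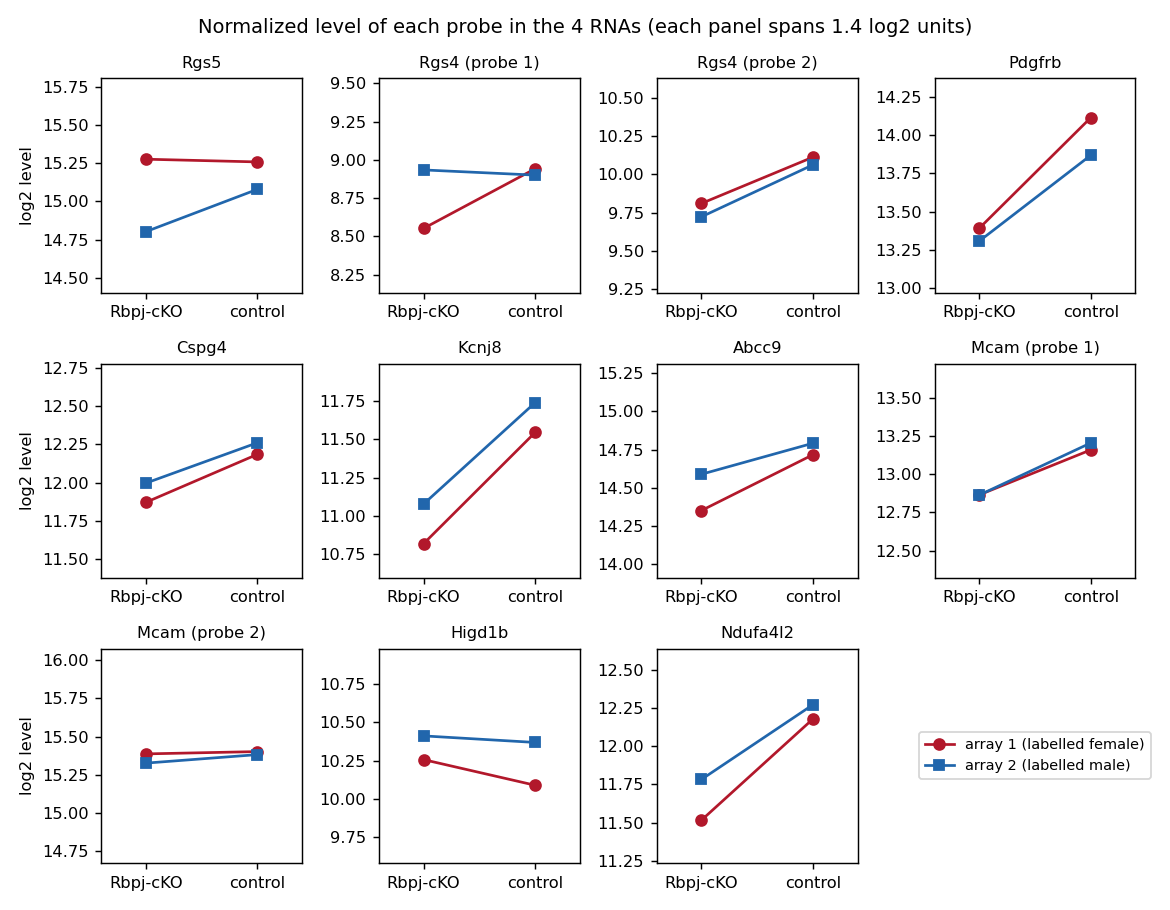
Normalized log2 level (vertical axis) of each of the 11 probes in the Rbpj-cKO and control RNAs; each line joins the RNAs of 1 array, circles for array 1 and squares for array 2, and every panel spans 1.4 log2 units. The lines of Kcnj8, Pdgfrb and Ndufa4l2 are steepest, and those of Mcam probe 2 and Higd1b are nearly flat.

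Rgs5 and Rgs4 encode regulators of G protein signalling of the R4 family, which shorten signals from contractile receptors by speeding GTP hydrolysis. Rgs5 is among the most used markers of pericytes. Its probe (chromosome 1 at 171623021-171623080, mm9, plus strand) had log2 levels of 15.28 and 14.80 in the Rbpj-cKO RNAs, against 15.26 and 15.08 in the control RNAs. The groups overlapped, since the Rbpj-cKO RNA of array 1 was the highest of the 4. Array 1 gave a ratio of 0.02 and array 2 one of -0.28, for a mean of -0.13 ± 0.21 (adjusted p = 0.660). On array 1 the single spots ran from -0.0016 to 0.041, and on array 2 from -0.29 to -0.26, so the spots of the arrays did not overlap. The interval of the mean, from -0.40 to 0.14, includes differences as large as that of Cspg4.

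Rgs4 has 2 probes on the minus strand of chromosome 1, probe 1 at 171671609-171671668 and probe 2 at 171672488-171672547 (mm9), 879 bases apart. Probe 2 had log2 levels of 9.81 and 9.72 in the Rbpj-cKO RNAs, against 10.11 and 10.06 in the control RNAs, and ratios of -0.30 and -0.34 (mean -0.32 ± 0.03, adjusted p = 0.229). Probe 1 had levels of 8.55 and 8.93 in the Rbpj-cKO RNAs, against 8.94 and 8.90 in the control RNAs, and ratios of -0.39 and 0.03 (mean -0.18 ± 0.30, adjusted p = 0.615). The probes agreed on array 1 and parted on array 2, where the spots of probe 1 ran from -0.04 to 0.08. Probe 1 was the dimmest of the 11, with a signal at least 7.02 times its local background in every channel, against at least 16.8 times for probe 2. Its first 30 bases and those of probe 2 are given, as they read different stretches of 1 transcript record.
Rgs4 probe 1: gcttccgacgaaacacacaaatcttaatga
Rgs4 probe 2: tcatgaactgcaaagccctctttggttttc
Of the 10 R4 family genes, 8 were measured, with a median of -0.11, and 4 were lower and 1 higher on both arrays (29.7% and 31.8% of all names). Rgs18 had -0.15 ± 0.02 and Rgs8 0.07 ± 0.09. Rgs16 stood at 0.01 ± 0.04 and Rgs3 at -0.01 ± 0.03, near enough to 0 that the sign turned with median centring for Rgs16 (-0.01) and in the authors' deposited table for Rgs3 (0.01). The lowest was Rgs2, a regulator of Gq signalling in vascular smooth muscle, with ratios of -0.43 and -0.56 (mean -0.49 ± 0.09, adjusted p = 0.162).

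The last members encode small mitochondrial proteins, and their values differed. Ndufa4l2, a paralog of the respiratory chain subunit gene Ndufa4 and a known target of hypoxia-inducible factor, had log2 levels of 11.52 and 11.78 in the Rbpj-cKO RNAs, against 12.18 and 12.27 in the control RNAs. The groups did not overlap. The ratios were -0.66 and -0.49, with a mean of -0.58 ± 0.12 (adjusted p = 0.141), at a probe on chromosome 10 at 126954149-126954208 (mm9, plus strand). Higd1b, a member of the hypoxia-inducible domain family, had levels of 10.26 and 10.41 in the Rbpj-cKO RNAs, against 10.09 and 10.37 in the control RNAs. These overlapped, and the ratios were 0.17 and 0.04 (mean 0.11 ± 0.09, adjusted p = 0.645; chromosome 11 at 102699294-102699353, mm9, plus strand). Its interval, from -0.10 to 0.31, does not reach the lower ratios of the other mitochondrial marker.

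Among their paralogs, Ndufa4 had ratios of -0.54 and -0.31 (mean -0.43 ± 0.17, adjusted p = 0.215), and Higd1a had -0.57 and -0.23 (mean -0.40 ± 0.24, adjusted p = 0.270). The 13 hypoxia response genes, all measured, had a median of -0.19, with 8 lower and 3 higher on both arrays (29.7% and 31.8% of all names). Bnip3, a mitophagy receptor, was lowest at -0.55 ± 0.38, while Adm, the vasodilator peptide adrenomedullin, stood at 0.32 ± 0.11. The median of the hypoxia genes was -0.20 on array 1 and -0.07 on array 2.

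**Figure D3:**
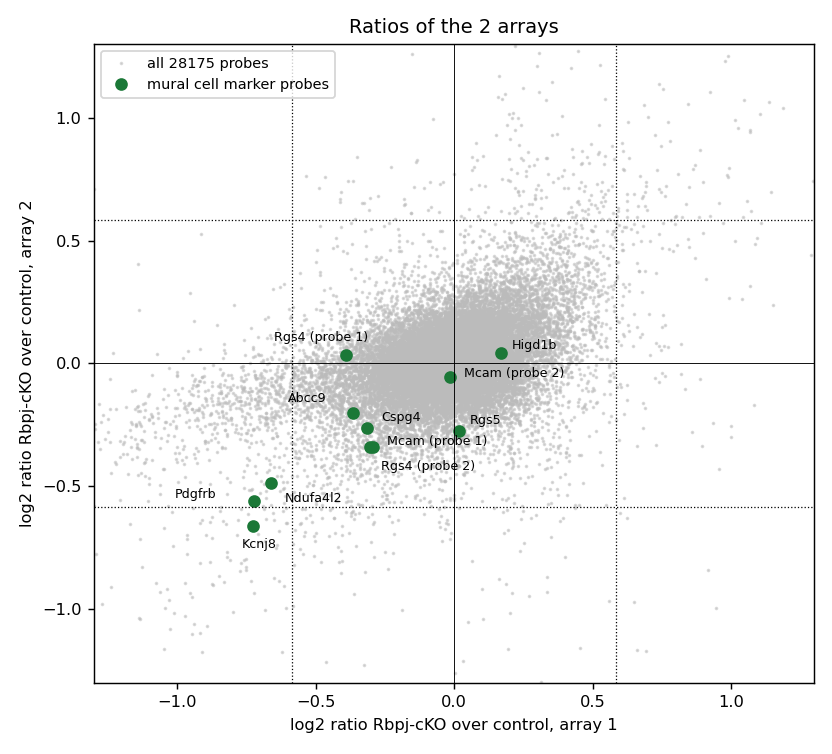
The log2 ratio of Rbpj-cKO over control on array 1 (horizontal axis) against that on array 2 (vertical axis) for all 28175 probes (grey) and the 11 mural cell marker probes (green), with dotted lines at 1.5-fold; 297 probes beyond 1.3 on either axis are not drawn. The markers lie mostly in the lower left, with Kcnj8 alone in its 1.5-fold corner.

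The ligands and the other receptors of the PDGF family lay on both sides of the control level. Pdgfra, the receptor of fibroblasts and stroma, had ratios of 0.45 and 0.49 (mean 0.47 ± 0.03, adjusted p = 0.157), with both Rbpj-cKO levels above both control levels. The ligands Pdgfc and Pdgfd had means of 0.20 ± 0.02 and 0.23 ± 0.02. Pdgfb, the ligand that endothelium presents to mural cells, stood at -0.04 ± 0.07 and Pdgfa at -0.13 ± 0.07. Pdgfrl, a receptor-like secreted protein, had -0.30 ± 0.04. Of the 6 genes, 2 were lower and 3 higher on both arrays (29.7% and 31.8% of all names), with a median of 0.08, and 0 passed the adjusted threshold.

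Signals between endothelium and mural cells were mixed as well. Of 15 such genes, 8 were lower and 4 higher on both arrays (29.7% and 31.8% of all names), with a median of -0.14, and 0 passed. Angpt2, the angiopoietin that loosens mural cell contact, had ratios of -0.88 and -0.64 (mean -0.76 ± 0.17, adjusted p = 0.123). Angpt1, which mural cells make to steady the endothelium, had -0.90 on array 1 and -0.05 on array 2, so that its difference rested on 1 pair. Cdh2, the N-cadherin of contacts between endothelium and pericytes, had -0.40 ± 0.11. In the other direction, Edn1, the vasoconstrictor endothelin, had 0.77 and 0.98 (mean 0.88 ± 0.15, adjusted p = 0.100), and the chemokine Cxcl12 had 0.59 ± 0.09, although its other probe read 0.38.

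A further 25 mural cell genes, of which 24 were measured, divided. Of these, 13 were lower and 6 higher on both arrays, where 29.7% and 31.8% of all names were, and the median was -0.06. The lowest that was alike on both arrays was Heyl, a Notch target of vascular smooth muscle, with ratios of -1.61 and -1.44 (mean -1.52 ± 0.12, adjusted p = 0.0840). Notch3, the Notch receptor of mural cells, had -0.43 and -0.39 (mean -0.41 ± 0.03, adjusted p = 0.184). Other genes were lower on both arrays by unlike amounts: Ebf1 had ratios of -0.73 and -0.33, Steap4 of -0.86 and -0.36, and Art3 of -2.43 and -0.95. Ebf1 and Steap4 are also expressed in fat cells, whose markers were lower in the same RNAs. The part of fat in the values of Ebf1, Steap4 and Art3 was not tested. Vtn, which encodes vitronectin and is also made by liver, had -1.0 on array 1 and -2.07 on array 2. The liver gene Alb had the opposite sign on array 1 (0.90) and the same sign on array 2 (-2.66), and the part of liver RNA in the value of Vtn was not tested.

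Receptors through which mural cells are contracted were not alike. S1pr3, a receptor for sphingosine-1-phosphate, had -0.38 ± 0.09, and Agtr1a, the angiotensin receptor, -0.37 ± 0.10. Ednra, the endothelin receptor of vascular smooth muscle, stood at -0.05 ± 0.03. Other genes used as pericyte markers were near the control level, with Cd248 (endosialin) at 0.07 ± 0.11, Cox4i2, a lung and pericyte subunit of cytochrome oxidase, at -0.07 ± 0.04, and Anpep (CD13) at 0.01 ± 0.04 (-0.02 with median centring). Gucy1a1, a subunit of the nitric oxide receptor, had 0.17 ± 0.0050 and Olfml2b 0.25 ± 0.07. Lower ratios were thus found for some pericyte genes and not for others, within the 9 as well as beyond them.

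**Figure D4:**
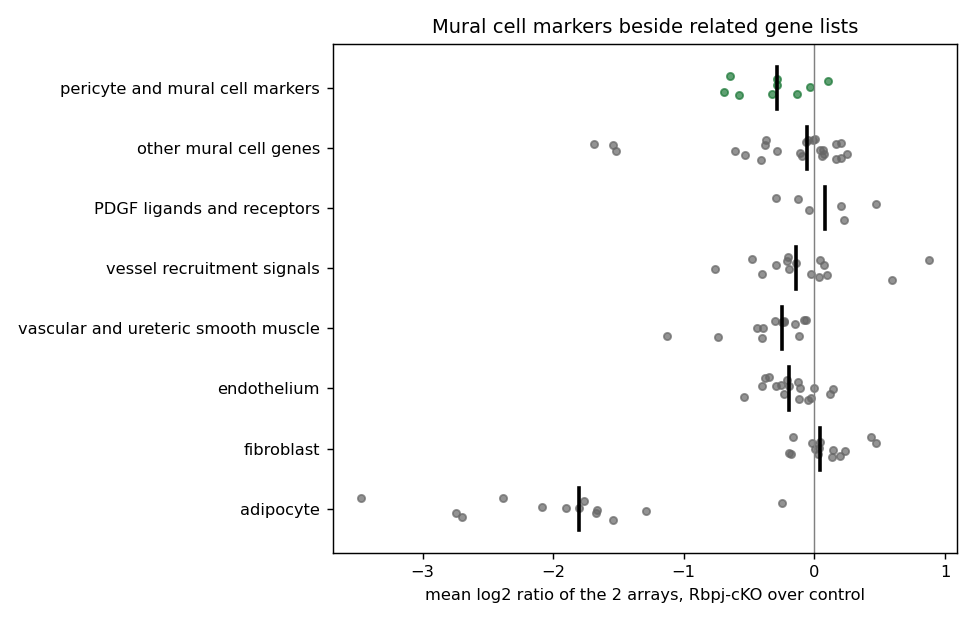
Mean log2 ratio of the 2 arrays (horizontal axis) for each measured gene of 8 gene lists, by its brightest probe, with a bar at the list's median; vertical scatter within a list has no meaning. The median of the mural cell markers is -0.29, beside -0.25 for smooth muscle, -0.20 for endothelium, 0.04 for fibroblasts and -1.80 for fat cells.

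Markers of other cells that the dissected ureter can hold also differed between the RNAs. Over all names, 29.7% were lower and 31.8% higher on both arrays, the shares against which the counts of these lists are to be read. Of 13 smooth muscle genes, 10 were lower and 0 higher on both arrays, with array medians of -0.24 and -0.36. They were led by Synm (-1.13 ± 0.21) and Des (-0.74 ± 0.12), which encode filament proteins that pericytes also contain. Des is also in the skeletal muscle list, of whose 10 measured genes 6 were lower and 2 higher on both arrays. Of those 10, 3 were at least 1.5-fold lower on both, Des among them (0.795% of all names). Of 17 endothelial genes, 11 were lower and 2 higher on both arrays, with medians of -0.19 and -0.11, and Cldn5, the tight junction claudin of endothelium, had -0.53 ± 0.36. The mean log2 level of the 17 was 12.50 and 12.49 in the Rbpj-cKO RNAs, against 12.76 and 12.58 in the control RNAs, and all 17 were measured. Set against the endothelial median of the same array, 7 of the 11 marker probes were lower on both arrays, 2 higher (Higd1b and Mcam probe 2) and 2 of opposite sign (Rgs5 and Rgs4 probe 1). The differences from that median were -0.54 and -0.55 for Kcnj8 on arrays 1 and 2, and 0.36 and 0.15 for Higd1b. Set against the smooth muscle median, 3 of the 11 were lower on both arrays (Kcnj8, Pdgfrb and Ndufa4l2), 3 higher (Rgs5, Mcam probe 2 and Higd1b) and 5 of opposite sign. Those 5 were the probes of Cspg4 (-0.07 and 0.09) and Abcc9 (-0.12 and 0.15), Mcam probe 1 and both probes of Rgs4. The shares of all probes below or above these 2 medians were not computed, so the counts against them only describe the 11 probes. The part of endothelium, smooth muscle and skeletal muscle in the marker values was not tested.

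The fibroblast, fat and kidney counts that follow are likewise to be read against 29.7% of all names lower and 31.8% higher on both arrays. Of 14 fibroblast genes, 3 were lower and 7 higher on both arrays, with array medians of 0.04 and 0.02. Lum, the proteoglycan lumican, had 0.44 ± 0.13. Fat cell markers had the lowest median of the lists, with 13 of 13 lower on both arrays and array medians of -2.63 and -1.0. Their mean log2 level was 12.47 and 12.32 in the Rbpj-cKO RNAs, against 15.14 and 13.54 in the control RNAs. The array medians of the 9 mural markers were -0.31 and -0.28. Fat tissue holds capillaries with pericytes, and the part of that tissue in the mural marker values was not tested. Kidney epithelium markers went the other way, with 6 of 8 measured genes higher on both arrays, among them Lrp2 (0.99 ± 0.05) and Kap (1.24 ± 0.20), which were at least 1.5-fold higher on both (0.402% of all names).

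Mesangial and renin cells are among the mural cells of the kidney. Of 8 of their genes, 5 were lower and 2 higher on both arrays (29.7% and 31.8% of all names). The list is not separate from the others, since Pdgfrb is also a member and Des is also in the smooth muscle list. Ren1, renin, had -0.73 and -1.32 (mean -1.02 ± 0.42, adjusted p = 0.151), and Akr1b7, an aldose reductase of renin cells, -0.80 ± 0.27. With Des, these made up the 3 of the 8 that were at least 1.5-fold lower on both arrays, as 0.795% of all names were. By limma 0 of the 8 passed the adjusted threshold, and 7 had an unadjusted p under 0.05 in either direction, as 14.4% of all names did.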

How the data were processed

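RNA of 4 ureter samples was measured on 2 arrays. Per the file headers, the deposited intensity values are mean spot signals and local background medians from Agilent Feature Extraction 10.7.3.1, with probe positions on mm9, and the deposited log10 ratios are red over green. The authors' deposited series table holds a score whose scale is not stated; it was read as signed fold changes, since 0 values lie between -1 and 1 and both column medians are 1.

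Signals were corrected with normexp (offset 50) and normalized by loess within arrays in limma 3.58.1 (R 4.3.3). Control spots had weight 0, and outlier spots were left out. Log ratios run as Rbpj-cKO over control, the 4 spots of a probe were averaged, and levels are log2 channel values after Aquantile. Kept were probes for which, in 1 genotype or the other, over 50% of the spots were called well above background by the scanner on each array. The limma fit (lmFit, eBayes) ran over all 28175 kept probes with Benjamini-Hochberg adjustment at 0.05 and had 1 residual degree of freedom. The number of arrays limits the precision. The scripts were tested on simulated data.

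The members and gene lists were chosen with earlier results of these data known. All members are named. Any measured gene of the mural, PDGF, recruitment, KATP, RGS and paralog lists could be named, and not all of them are. Of other lists, significant genes and at most 4 others, those farthest from 0, could be named. Lists of urothelium, erythroid, skeletal muscle, nerve and leukocyte genes had medians of 0.23, -0.22, -0.20, -0.08 and -0.02. Each array held 1 pair, so the pairing comes from the hybridization.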

Additional observations from a re-analysis of the deposited data

Results flagged for a closer look

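Among the mural cell markers, 2 probes had ratios of opposite direction in the pair labelled female (array 1) and the pair labelled male (array 2). The log2 ratio of Rbpj-cKO over control at Rgs4 probe 1 was -0.39 on array 1 and 0.034 on array 2. For Rgs5 it was 0.018 on array 1 and -0.28 on array 2. The Rbpj-cKO RNA of array 1 holds Y-linked transcripts against its label. With 1 pair of each label the difference was not tested, and sex label, dye orientation and replicate cannot be told apart.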

How the results depend on the processing

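Each result was recomputed under 12 alternatives and with each array alone. All 130 values of the member probes under the 12 alternatives kept their direction and missed the adjusted threshold. Alternatives that change only the probe filter, the choice of probe or the fit leave the mean log2 ratio as it was. Under those the direction was fixed in advance, for the member probes and for the other named genes below. The smallest adjusted p of limma was 0.0502, for Kcnj8 with the trend and robust settings, and the largest for Kcnj8 was 0.572, with median centring. The count of all probes past the threshold, 1 as reported, was 0 with the scanner log ratio, median centring, the authors' deposited series table and the 4 channels with no replicate block, 3 with scaling between arrays, and 70 with the trend and robust settings. The fit with the array as a replicate block, which amounts to the same model as the ratio fit, gave 1 and changed no call. Member probes at least 1.5-fold lower on both arrays numbered 2 with median centring (0.763% of all probes) and 2 with scaling (0.742%), against 1 as reported (0.713%). With 1 array alone, 3 were at least 1.5-fold lower on array 1 (3.49% of all probes) and 1 on array 2 (1.28%). The median over the 9 genes was -0.327 with median centring and -0.259 in the authors' deposited series table, against -0.289 as reported, and -0.314 to -0.277 with 1 array alone. Member probes lower on both arrays numbered 7 with the scanner log ratio, median centring and the series table, against 8 as reported. The shares of all probes under these settings were 27.5%, 33.2% and 23.4%, against 30.9% as reported. Of 672 values of 56 other named genes, 3 turned: Anpep (-0.0216) and Rgs16 (-0.014) with median centring and Rgs3 (0.0058) in the series table. With the trend and robust settings 5 others passed the threshold, Heyl, Kap, Lrp2, Rbpj and Synm. The number of arrays limits the precision of every value, and with 1 array alone there is no test.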
